A study of Mus musculus with 2 samples.

Results

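The genes described are members of 11 families of developmental transcription factors that lie outside the Hox clusters, namely *Pax*, *Sox*, *Tbx*, *Lhx*, *Nkx*, *Six2* to *Six6*, *Dlx*, *Irx*, *Msx*, *Pitx* and *Barx*. They are genes whose symbol is one of these family names followed by a number, and those described came to 84 of the 24421 gene symbols counted. RNA was sequenced from hematopoietic stem cells (HSCs) of C57BL/6 donors that carried 1 copy of the tamoxifen-inducible recombinase Cre-ERT, with intact *Ezh2* (Ezh2 +/+, WT) or with *Ezh2* deleted (Ezh2 Δ/Δ, labelled Ezh2 KO). CD45.2 marrow of either genotype had been placed in irradiated CD45.1 recipients. Both groups received tamoxifen (100 μl at 10 mg/ml a day for 5 days), and the cells were sorted 1 month later from the LSK fraction (Lin-, Sca-1+, c-Kit+) as CD34-, CD150+, CD48- and Flt3-. The age of the mice, the number pooled and the cells in which Cre-ERT acts are not given in the sources used here, and recipients keep cells of their own beside the graft.

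*Ezh2* encodes the main methyltransferase of Polycomb repressive complex 2 (PRC2), which marks chromatin with H3K27me3. Genes for developmental regulators are classic carriers of this mark: in blood cells most of them are held off, and their promoters are rich in CpG dinucleotides, where PRC2 is known to gather. Each family is defined by its DNA-binding part, the paired domain in Pax, the HMG box in Sox, the T-box in Tbx and a homeodomain in the other 8 families, and its members lay out organs such as limb, heart, eye and nervous system. A few of them also act in blood.

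Each group was a single library, so replicates could not be compared, and a test on reads sets 1 library against the other rather than 1 genotype against the other. Gene counts summed to 5763118 for WT and to 4157280 for the library labelled Ezh2 KO. A count of 0 allows up to 0.521 and 0.722 CPM (counts-per-million), taken as 3 counts and covering counting error only, since amplified reads are not independent molecules. *Ezh2* itself had 166 and 129 counts (142.5 and 150.3 after scaling), so the gene-level count did not show the deletion, and directions below are those of the label. All 13 HSC markers examined were above 3 counts in both libraries, among them *Kit*, *Procr* and *Hlf*. Of these 13, 0 were called, but they were not all level. Log2 ratios ran from -0.62 for *Slamf1*, the CD150 gene, and -0.59 for *Fgd5* to 0.32 for *Ly6a*. Of the transcripts of markers selected against, *Cd48* had 12 and 11 counts, whereas *Cd34* (957 and 829) and *Flt3* (98 and 140) were present. After scaling, *Flt3* stood at 84.1 and 163, and *Itgam*, of myeloid cells, was called higher with 73 and 131 counts. *Xist* had 801 counts in WT and only 4 in the second library, and *Ddx3y*, *Eif2s3y*, *Kdm5d* and *Uty*, all on Y, had 0 in WT and between 106 and 275 in the other, so genotype and these sex-linked differences cannot be told apart.

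Most of the developmental factors had no read in either library, and such genes are called silent below, within the limit that a count of 0 allows. Of the 84 genes, 52 (61.9%) had 0 counts in both, against 39.2% of all genes and 33.4% of protein-coding genes. A further 11 had at most 3 counts in either library, which is taken here as the floor. The remaining 21 exceeded 3 counts in at least 1 library, 13 of them in both, 4 in WT alone and 4 in the library labelled Ezh2 KO alone. Among all genes, 6.01% had 1 to 3 counts at most, 50.4% were above the floor in both, 2.62% in WT alone and 1.85% in the second library alone. Members above the floor numbered 17 in each library, and 14.7 would be expected in WT at the depth of the shallower library.

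**Figure D1:**
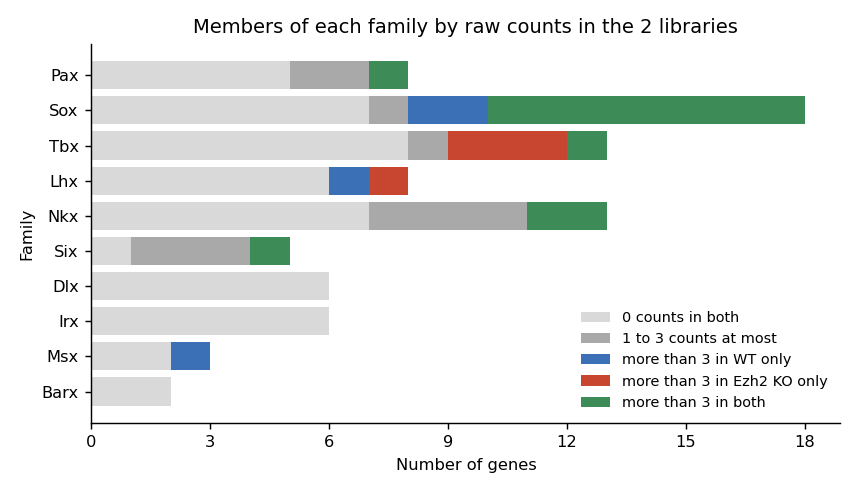
Number of genes described in each family (horizontal axis; *Pitx* is not drawn) by raw counts in the WT and Ezh2 KO libraries; colours give the class of counts. *Sox* has the most members above 3 counts in both libraries (8 of 18), while Dlx, Irx and Barx have 0 counts throughout.

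Silence was complete in 3 families. The 6 *Dlx* genes, which pattern jaw, forebrain and limb, the 6 *Irx* genes, which pattern neural tissue and heart, and both *Barx* genes had 0 counts in either library. In Msx only *Msx3*, a gene of the dorsal neural tube, had any count (4 in WT, 0 in the second library). *Lhx* genes encode LIM-homeodomain factors of neurons and limb, and 6 of 8 (*Lhx1*, *Lhx3*, *Lhx4*, *Lhx5*, *Lhx8* and *Lhx9*) were at 0. *Lhx6*, of cortical interneurons, had 5 counts in WT against 0, and *Lhx2*, of eye and limb, had 0 against 4. These few reads are close to the floor of 3 counts, and the exact 95% interval of each ratio included no change. Across the 8 homeodomain families together, 32 of 45 genes had no count and 6 passed the floor.

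Among *Pax* genes, *Pax2*, *Pax4*, *Pax7*, *Pax8* and *Pax9* (5 of 8) were at 0, and *Pax1* and *Pax3* had 1 count each, in WT and in the other library respectively. *Pax6*, the eye and brain regulator, had 11 counts in WT against 8 (9.44 and 9.32 after scaling). Of the 5 genes *Six2* to *Six6*, members of a family that acts with Eya cofactors in muscle, kidney and eye, *Six6* was at 0 and *Six2*, *Six3* and *Six4* had 1 count each, all in WT. *Six5* stood far above these, with 155 and 90 counts. The 7 *Sox* genes at 0 were *Sox1*, *Sox2* and *Sox3*, of neural progenitors and, for *Sox2*, pluripotent cells, the neural crest gene *Sox10*, and *Sox11*, *Sox14* and *Sox21*, all known from neurons. The 8 *Tbx* genes at 0 were *Tbx3*, *Tbx5*, *Tbx18* and *Tbx20*, which act in the heart, *Tbx10*, *Tbx15*, *Tbx22* and *Tbx21*, the T-box factor of helper T and natural killer cells. The 7 *Nkx* genes at 0 were *Nkx1-2*, *Nkx2-2*, *Nkx2-4*, the heart gene *Nkx2-5*, *Nkx2-6*, *Nkx3-2* and the beta-cell gene *Nkx6-1*. The hindlimb gene *Pitx1* and the dopaminergic neuron gene *Pitx3* were at 0 as well. The X-linked members *Sox3* and *Tbx22* were both at 0. The 11 antisense or companion transcripts named after members and counted separately (*Dlx6os1*, *Six3os1* and *Sox2ot* among them) had 0 counts in both libraries.

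Silent members resembled expressed genes in the CpG content of their promoters. RefSeq promoter windows (GRCm38.p6, the assembly that mm10 names) were at hand for 61 of the 84, and the 250 bases before the start were examined on the coding strand. The ratio of observed to expected CpG had a median of 0.691 over 35 members with 0 counts, 0.664 over 18 members above the floor, 0.721 over 10153 other genes above the floor and 0.209 over 6052 other genes with 0 counts. A ratio of at least 0.6 was found for 65.7% of silent members and for 13.4% of other silent genes. Within the families the range was wide, from 0.065 for *Tbx22* to 1.13 for *Nkx6-1*. These are descriptions of sequence and no test was made.

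**Figure D2:**
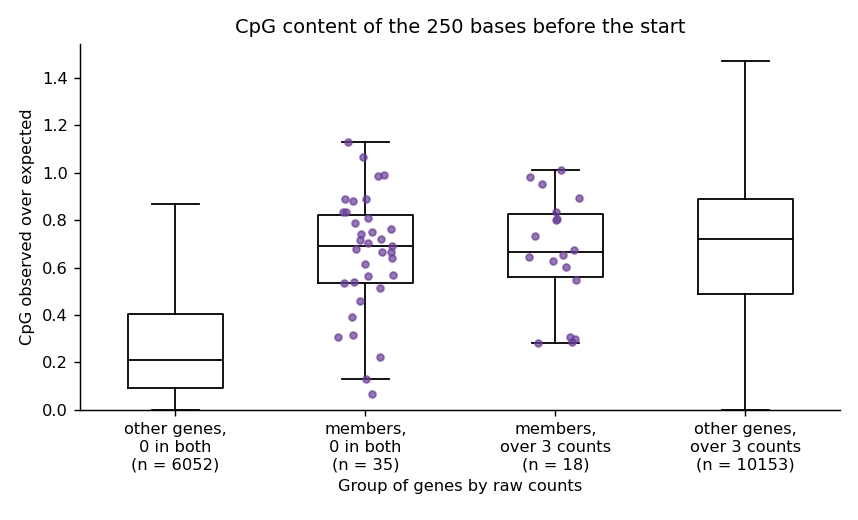
CpG observed over expected in the 250 bases before the start (vertical axis) for members and other genes by raw counts; boxes give quartiles and median, whiskers reach 1.5 interquartile ranges, points are members. Silent members (median 0.691) sit with expressed genes (0.721) and above other silent genes (0.209).

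The windows of 4 members are printed to show this range, with each CpG in capitals: the most abundant pair, one member that was higher in the library labelled Ezh2 KO, and the silent member with the highest ratio.
Sox4 (chr13:28953700-28953949, minus strand): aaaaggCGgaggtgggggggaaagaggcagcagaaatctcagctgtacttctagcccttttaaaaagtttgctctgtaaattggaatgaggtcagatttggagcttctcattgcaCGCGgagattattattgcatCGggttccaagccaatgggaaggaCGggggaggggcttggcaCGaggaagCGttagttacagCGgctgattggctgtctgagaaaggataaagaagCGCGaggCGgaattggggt
Nkx2-3 (chr19:43612075-43612324, plus strand): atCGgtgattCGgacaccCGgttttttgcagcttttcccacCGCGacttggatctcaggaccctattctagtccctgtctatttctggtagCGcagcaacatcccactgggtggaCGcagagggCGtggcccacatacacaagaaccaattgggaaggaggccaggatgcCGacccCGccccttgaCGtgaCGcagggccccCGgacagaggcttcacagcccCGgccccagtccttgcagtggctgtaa
Tbx4 (chr11:85896515-85896764, plus strand): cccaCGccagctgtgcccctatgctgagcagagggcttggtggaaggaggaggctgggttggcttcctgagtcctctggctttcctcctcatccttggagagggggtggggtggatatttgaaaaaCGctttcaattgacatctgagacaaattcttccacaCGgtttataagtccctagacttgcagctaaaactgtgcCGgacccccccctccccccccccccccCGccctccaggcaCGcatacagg
Nkx6-1 (chr5:101664712-101664961, minus strand): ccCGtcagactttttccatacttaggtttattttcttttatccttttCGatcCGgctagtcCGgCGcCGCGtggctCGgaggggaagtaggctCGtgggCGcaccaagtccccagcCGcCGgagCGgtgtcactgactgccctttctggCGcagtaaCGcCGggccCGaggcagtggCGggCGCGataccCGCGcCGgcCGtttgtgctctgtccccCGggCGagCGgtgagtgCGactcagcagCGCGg
*Nkx6-1*, with 0 counts, held 30 CpGs in its window. *Sox4* held 11 and *Nkx2-3* held 14, whereas *Tbx4* held 6 and had a ratio of 0.285. The *Tbx4* and *Nkx6-1* windows lie before the RefSeq start but inside the longer GENCODE gene, and the *Sox4* window overlaps its GENCODE gene by a few bases. A CpG occurs in the window of 93.1% of all genes that have one.

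Levels were then compared between members per length, as CPM per kilobase of merged GENCODE exons. *Nkx2-3* and *Sox4* stood well above the rest. *Nkx2-3* had a level of 85.0 in WT and 87.9 under the Ezh2 KO label, and *Sox4* had 69.4 and 97.3, so their order differed between the libraries. *Sox18* followed with 13.3 and 7.87, then *Six5* (8.94 and 7.20), *Sox12* (9.04 and 6.91), *Sox13* (7.08 and 6.81) and *Sox6* (4.20 and 3.88). The range of *Sox12* over both libraries overlapped those of *Sox18*, *Six5* and *Sox13*, so the order among these 4 is loose. Every other member lay below 2 on this scale in both libraries. These ranks rest on exons merged over all annotated transcripts, which makes long genes with many isoforms such as *Sox5* look low.

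**Figure D3:**
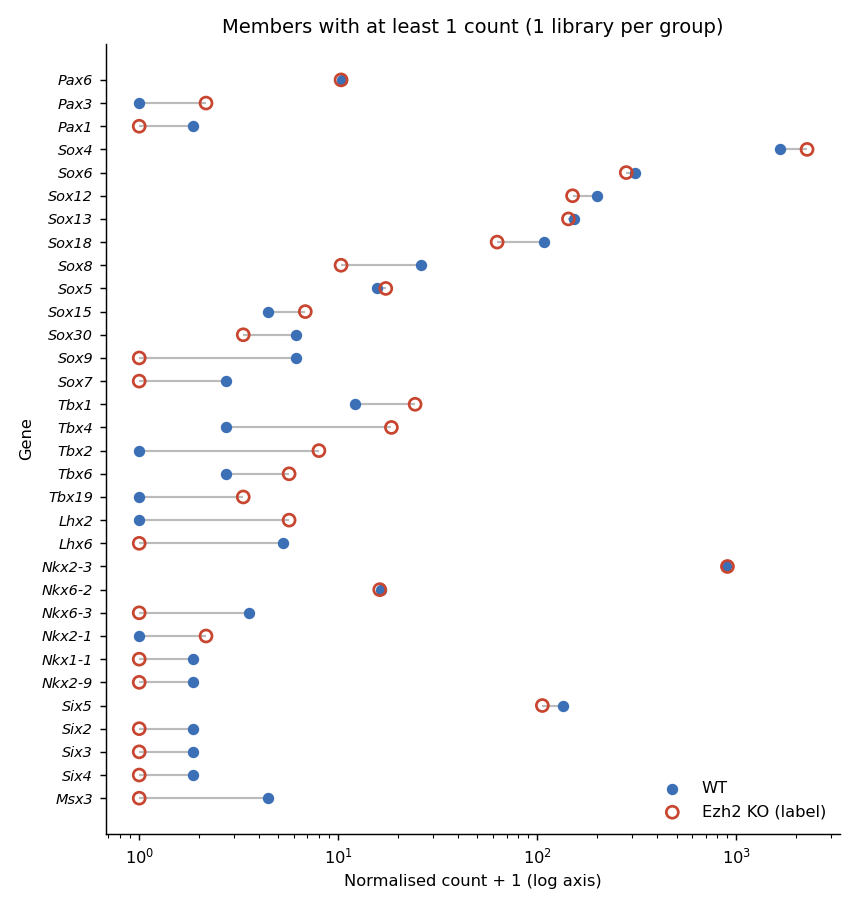
Normalised count plus 1 (horizontal log axis) of the 32 members with at least 1 count, by family; filled points are WT and open circles the library labelled Ezh2 KO, 1 library each. *Sox4* and *Nkx2-3* lie far to the right of the others, and all 5 Tbx genes lie further right in the library labelled Ezh2 KO.

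For the comparison of the libraries, 13 members had a mean of at least 1 CPM and entered an exact binomial test run over 12588 genes, with Benjamini-Hochberg adjustment over all of them. A gene was called at an adjusted p under 0.01 and a difference of at least 2-fold. In the library labelled Ezh2 KO, 1 member was called higher (*Tbx4*) and 0 lower, where 2.8% of all genes tested were called higher and 2.3% lower. At least 2-fold apart, whatever the p, were 1 higher (*Tbx4*) and 1 lower (*Sox8*), against 4.91% and 3.9% of all genes tested. These counts give no rate for the families, since *Tbx4* passed the filter only through the library in which it was high, and 6 of the 13 had a mean between 1 and 5 CPM, a range in which 8.89% of all genes were called higher and 5.55% lower, and 22% and 15.3% lay at least 2-fold higher and lower. The log2 ratio of the 13 had a median of -0.03, against -0.003 for all genes tested. With an assumed spread between libraries (a CV of 0.2, in edgeR's exact test) in place of counting error alone, 0 members were called, against 41 genes higher and 22 lower among all tested.

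All *Tbx* genes described that had any read were higher in the library labelled Ezh2 KO, at low counts. The T-box genes *Eomes* and *Tbr1*, which carry other symbols, had 1 count each in WT and 0 in the other library. *Tbx4* (chromosome 11, 85886422 to 85916097), needed for hindlimb and lung, had 2 counts in WT against 15. Its ratio was 10.2-fold, or 3.35 on the log2 scale (exact 95% interval 1.24 to 6.52), and 2.77 with 1 added to each normalised count (adjusted p = 0.00148 in the exact test). *Tbx2* (chromosome 11, 85832551 to 85841948), a repressor in heart and limb, had 0 against 6 counts, with an exact 95% interval of the log2 ratio that starts at 0.68, and was too low to enter the test. *Tbx1*, a gene of the pharyngeal arches, had 13 and 20 counts (11.2 and 23.3 after scaling), with a log2 ratio of 1.00 on normalised counts plus 1 and an adjusted p of 0.124 in the exact test. It lay just under 2-fold on that scale. *Tbx6* of the paraxial mesoderm had 2 and 4 counts, a ratio of 2.72-fold with an interval on the log2 scale from -1.36 to 4.91, and the pituitary gene *Tbx19* had 0 and 2.

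Taking the family as a sum, *Tbx* genes had 17 counts in WT against 47, and the log2 ratio was 1.91 (exact 95% interval 1.08 to 2.80). Without *Tbx1* the sums were 4 and 27, a log2 ratio of 3.20 (1.68 to 5.17). All 5 members with a read lay higher in the library labelled Ezh2 KO, and the other 8 of the 13 were at 0 in both. *Tbx2* (0 and 6 counts) and *Tbx19* (0 and 2) had reads in that library alone, so neither could lie lower. *Tbx4* and *Tbx6* passed the floor of 3 counts only there, and *Tbx19* passed it in neither library. The sum without *Tbx1* thus holds only genes that passed the floor in that library alone or in neither. In no other family of more than 1 detected gene did all members move to that side. A family lying wholly on 1 side was not particular to *Tbx*, however. All 4 detected genes among *Six2* to *Six6* were lower, although *Six2*, *Six3* and *Six4* had only 1 count each in WT against 0. Of 11 *Sox* genes with a read, 3 were higher and 8 lower, and of 6 *Nkx* genes 2 were higher and 4 lower. *Nkx2-3* and *Nkx6-2* lay so near 0 that thinning the WT reads turned their sign. *Sox7*, *Sox9*, *Nkx1-1*, *Nkx2-9* and *Nkx6-3* had reads only in WT, the deeper library, so they could not lie higher, and *Nkx2-1* had its read only in the other. No such share was taken over all genes with a read, so these counts give no rate for a family. These directions are described after the values were seen.

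*Tbx2* and *Tbx4* are neighbours, 44.5 kb apart on the same strand. Of 20 members that lie within 250 kb of another member, they were the only ones above the floor in either library. The *Dlx1* and *Dlx2*, *Dlx3* and *Dlx4*, *Dlx5* and *Dlx6*, *Tbx3* and *Tbx5*, and *Nkx2-2* and *Nkx2-4* pairs were at 0 in both libraries. In the *Six4* and *Six6* pair and in the *Nkx2-1*, *Nkx2-9* and *Pax9* cluster no gene had more than 1 count. Of the other genes within 250 kb of *Tbx2* or *Tbx4*, *Bcas3* (591 and 400 counts) and the transcript *2610027K06Rik* (44 and 32), which ends 0.328 kb before *Tbx2*, had log2 ratios of -0.12 and -0.02. *Brip1*, a DNA helicase gene on the far side of *Tbx4*, was called lower with 94 and 24 counts. It was named after its value was seen.

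**Figure D4:**
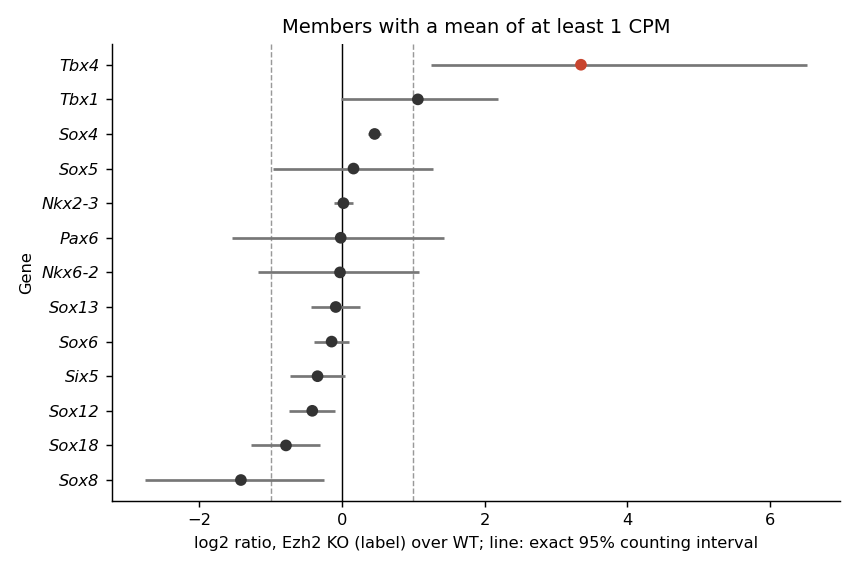
Log2 ratio of normalised counts without an added count (points, horizontal axis; library labelled Ezh2 KO over WT) and exact 95% counting intervals (lines) for the 13 members tested; dashed lines mark 2-fold. *Tbx4* (3.35), in red, was called higher, and *Nkx2-3* and *Sox4* have the narrowest intervals.

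The Sox family was the best represented, with 10 of 18 members above the floor. *Sox4*, of the SoxC group and needed for B lymphoid development, had 1919 counts in WT against 1940, which scaling brought to 1647 and 2261. The log2 ratio was 0.46 (exact 95% interval 0.37 to 0.55), a 1.37-fold difference that was beyond counting error (adjusted p = 1.23e-20 in the exact test) and below the 2-fold limit. Of genes with a mean of at least 100 CPM, 2.34% had a ratio as high. *Sox4* supplied 66.8% of *Sox* counts in WT, and 77.3% under the Ezh2 KO label. It therefore set the sign of the family sum: the log2 ratio was 0.25 (0.17 to 0.32) with *Sox4* and -0.30 (-0.45 to -0.15) without it. Its SoxC partner *Sox12* went the other way, from 199 to 149 normalised counts (log2 ratio -0.41, adjusted p = 0.0322 in the exact test, not called), and *Sox11* was at 0.

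The 3 SoxD genes, which lack a transactivation domain, differed little. *Sox6*, a repressor in erythroid cells, had 359 and 239 counts, a log2 ratio of -0.15 (exact 95% interval -0.39 to 0.09). *Sox13*, a gene of γδ T cells, had 176 and 122, a log2 ratio of -0.09 (-0.43 to 0.25). *Sox5*, a cartilage and neuron gene, had 17 and 14, a log2 ratio of 0.15 with the wide interval of -0.97 to 1.27. All 3 intervals included 0, and that of *Sox5* did not exclude a change of 2-fold higher.

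The SoxF gene *Sox18*, known from blood and lymphatic vessels, was lower in the library labelled Ezh2 KO. It had 124 and 53 counts, or 106 and 61.8 after scaling, a log2 ratio of -0.78 (interval without an added count -1.28 to -0.31). The adjusted p was 0.00436 in the exact test, but the difference did not reach 2-fold and 10.6% of genes with a mean between 5 and 20 CPM had a ratio as low. *Sox7*, of the same group, had 2 and 0 counts. Of 8 endothelial markers 5 were tested and 0 were called. The summed level of the 8 was 59.3 CPM in WT and 66.9 CPM in the other library, and *Cdh5* and *Ptprb* were at 0 in both. The other 6 had reads, *Emcn* 215 and 165, *Kdr* 82 and 69, *Cldn5* 19 and 15, *Stab2* 14 and 13, *Flt4* 10 and 11, and *Plvap* 2 and 5. Their part in the *Sox18* value was not tested.

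Among SoxE genes, which act in neural crest and gonad, *Sox8* had 29 counts in WT against 8. Its log2 ratio was -1.33, past 2-fold, with an adjusted p of 0.0398 in the exact test, so it was not called. An antisense gene that overlaps 1 end of it, *2810468N07Rik*, had 78 and 64 counts. Reads from the stretch they share cannot be told apart where counting ignores strand, and reads marked ambiguous entered no gene count. *Sox9*, the master gene of cartilage, had 6 and 0 counts, and the exact 95% interval of its ratio included no change. *Sox30*, of male germ cells, had 6 and 2, and *Sox15* had 4 and 5 but overlaps *Mpdu1* (332 and 271) on the other strand.

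Among Nkx genes nearly all RNA came from *Nkx2-3* (chromosome 19, 43612325 to 43615892), known for spleen and gut vessel development and from HSCs. It had 1034 counts in WT against 772 (887.3 and 899.6 after scaling), which was 97.8% and 98.2% of Nkx counts. The log2 ratio of 0.02 had a narrow interval of -0.12 to 0.16. *Nkx6-2*, of the neural tube, had 18 and 13 counts (log2 ratio -0.03, interval -1.18 to 1.08). It overlaps *Inpp5a* (246 and 152) on the other strand, so reads from the stretch they share are uncertain. *Nkx6-3* had 3 and 0, and *Nkx1-1*, *Nkx2-1* and *Nkx2-9* had 1 count each. *Six5*, which neighbours the myotonic dystrophy gene *Dmpk*, went from 133 to 105 after scaling, and the interval of its log2 ratio of -0.34 reached from -0.73 to 0.04.

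**Figure D5:**
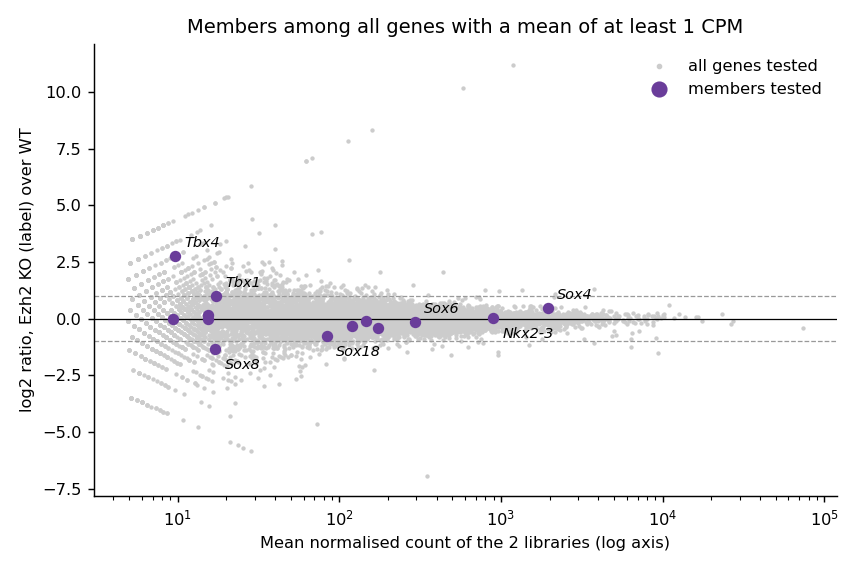
Log2 ratio of normalised count plus 1 (vertical axis, library labelled Ezh2 KO over WT) against mean normalised count (horizontal log axis) for the 12588 genes tested (grey) and 13 members (purple); dashed lines mark 2-fold. *Tbx4* (2.77) lies where grey points spread most.

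Over all 84 genes the sums were 4127 and 3447 counts, a log2 ratio of 0.18 (exact 95% interval 0.12 to 0.25). Without *Sox4* it was -0.11 (-0.21 to -0.01), so this sum, too, took its sign from 1 gene.

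A list of other developmental factors, outside Hox and without the symbols of these families, was also mostly at 0. It includes T-box genes with other symbols, such as *Eomes* and *Tbr1*. Of 173 listed, 171 were in the files, 145 (84.8%) had 0 counts in both libraries and 7 were tested. The LIM-homeodomain gene *Isl1* was called higher with 0 and 12 counts (exact 95% interval of the log2 ratio from 1.92 upward), and 0 were called lower. Like *Tbx4* it passed the filter only through the library in which it was high, at a mean where 8.89% of all genes were called higher, against 2.8% of all genes tested. Above the floor in the library labelled Ezh2 KO alone were 4 of the 171, *Isl1*, *Tcf24* (7 counts), *Sp5* (5) and *Lbx2* (4). In WT alone there were 4, *Twist1* (8 counts), *Gata6* (6), *Insm1* (5) and *Ascl2* (4). Over all genes, 1.85% were above the floor in the library labelled Ezh2 KO alone and 2.62% in WT alone. The most abundant were *Tcf15*, *Foxd2*, *Gbx2* and *Foxa3*, and none of these 4 was called. *Tcf15*, which is known from HSCs and somites, had 352 and 195 counts.

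Markers of other cells moved between the libraries too, and their part in the values above was not tested. Calls over all genes tested were 2.8% higher and 2.3% lower. Of 6 B lymphoid markers tested 5 were called higher in the library labelled Ezh2 KO, and the 9 listed summed to 48.1 and 99.8 CPM, with *Rag1* and *Rag2* at 0. The 6 eosinophil markers summed to 1.21 and 771 CPM, with 4 of the 5 tested called higher. Erythroid markers summed to 94.7 and 237 CPM with 4 of 8 called higher, while *Aqp1* was lower (log2 ratio -0.32). Neutrophil markers summed to 2023 and 3714 CPM with 4 of 11 called higher, *Ngp*, *Ltf*, *Camp* and *S100a8*. *Elane* went the other way, from 738 to 436 after scaling (log2 ratio -0.76), and *Prtn3* and *Ctsg* differed little (-0.07 and -0.01). Mesenchymal stroma markers summed to 44.4 and 69.3 CPM. Of 11 listed, 5 were tested, and *Cxcl12* and *Col1a2* were called higher. *Pdgfrb* went the other way (102 and 55 counts, log2 ratio -0.44, not called), and *Lepr* (8 and 7 counts) and *Alpl* (17 and 16) were not called. *Pdgfra*, *Bglap* and *Acta2* were at 0 in both, and *Col1a1* and *Col3a1* had 1 count each. Of 7 Schwann and neural markers 3 were tested, and *Ncam1* was called higher (sums of 221 and 233 CPM, nearly all *Mbp*, with *Ngfr* at 0). T and natural killer markers summed to 51.0 and 47.1 CPM. Of 10 listed, 5 were tested, with *Cd3g* and *Il2rb* called higher and *Klrb1c* lower. In these bulk samples fewer cells of a type and less RNA per cell cannot be told apart.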

How the data were processed

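The authors deposited whole-number counts by gene symbol for 1 library of each genotype, without normalisation. The submitters' processing notes name TopHat2 2.0.13, Bowtie2 2.1.0, StringTie, edgeR and bedtools and the build mm10. The counting program and its use of strand are not given in the sources used here. The 5 closing entries of each file name no gene and were left out; reads outside genes made up 44.9% of all entries in WT and 44.1% in the other library, ambiguous reads 0.532% and 0.539%.

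Counts were divided by DESeq2 1.42.0 size factors (1.17 for WT, 0.858 for the library labelled Ezh2 KO), and log2 ratios used a pseudocount of 1. With 1 library per group the quasi-likelihood test of edgeR 4.0.16 could not be fitted. The reads of each gene were split between the libraries and compared with the share set by the size factors (exact binomial, two-sided). Intervals are Clopper-Pearson at 95%. Positions and exon lengths came from GENCODE M21 and covered all 84 members. Work was done in R 4.3.3 and Python 3.11.15 (scipy 1.17.1).

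The members and lists were chosen with earlier results of these data known, and 5 matching symbols are not reported here. Named are all members above 3 counts, called list genes and up to 4 abundant ones. Alternatives were TMM and total-count scaling, other pseudocounts, filters and fold limits, an assumed CV, other floors and thinning of WT.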

Additional observations from a re-analysis of the deposited data

Results flagged for a closer look

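Reads with several alignments enter no gene count, and their share was larger in the library labelled Ezh2 KO (12.3% of all entries) than in WT (10.7%). It was singled out because it lies outside the gene counts and above the WT level. These reads are given as 1 total per library, so the part that came from the 11 families was not tested.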

How the results depend on the processing

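No paired analysis was possible because neither genotype has a second library.

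The limits are mainly those of depth: members with a few reads lie near the floor, and no spread between libraries was measured. Against 1 member called higher, 0 were called with a minimum mean of 10 CPM or an assumed CV of 0.2 or 0.4, and *Isl1*, the 1 other developmental factor called, was lost in the same 3 settings (0). *Tbx4* does not pass the filter of 10 CPM. A limit of 1.5-fold called 1 member lower (*Sox18*) in place of 0. At least 2-fold apart were 1 higher and 1 lower, 7 and 6 with no filter, and 0 and 0 at 10 CPM. With TMM or total-count scaling, a pseudocount of 0.5 or thinned WT reads 2 were at least 2-fold higher. The median log2 ratio of members (-0.03) was -0.24 with no filter (32 genes) and -0.15 at 10 CPM (7 genes), and that of the other factors (-0.11) was -0.38 with no filter (26 genes). Members with at least 1 count in WT were 27, against 17 above the floor, and those with more than 10 counts in the library labelled Ezh2 KO were 11, against 17.

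Without the most abundant member the log2 ratio of summed counts was -0.30 for Sox, 3.20 for Tbx, -0.27 for Nkx, -0.37 for the homeodomain families together (-0.03 with *Nkx2-3*) and -0.11 for all members; without *Sox4* and *Nkx2-3*, a choice made after seeing the data, it was -0.23 for all. The sign turned for 3 genes near 0: *Nkx2-3* (-0.0056 after thinning), *Nkx6-2* (0.0016 by total counts, 0.091 after thinning) and *Pax6* (0.011 by total counts). Total-count scaling moved the median of all genes to 0.03. Of the other comparisons with an alternative, 85 gene values kept their direction and call, and 62 summary values kept their count within 1.5 times or moved by less than the counting error. Among the latter the median of members turned to 0.0016 by total counts.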
